A study of Sus scrofa with 35 samples.

Results

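The genes described here are the mitochondrially encoded subunits of the last steps of oxidative phosphorylation: COX1, COX2 and COX3 of cytochrome c oxidase (complex IV), CYTB of complex III, and ATP6 and ATP8 of ATP synthase (complex V). Their probes were chosen by name on a porcine microarray: every non-control probe whose gene name or description gives one of these genes was taken, and 33 probes for prostaglandin synthases, which share the letters COX, were left out. This gave 159 of the 60305 non-control probes. Of these, 76 carry the gene name itself (25 for COX1, 21 for CYTB, 14 for COX3, 10 for ATP6, 5 for COX2 and 1 for ATP8) and 83 only mention the gene in their description. No measured value entered the choice, but the set was proposed with earlier results of these data in view, so the p-values below are not independent support for it.

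RNA was taken from a muscle of the back, the longissimus dorsi, in 35 growing castrated males. They were Creole pigs (12), Large White pigs (12) or F1 crosses of both breeds (11). The animals were sampled under thermoneutral conditions (TN, labelled 24 °C) or after heat stress (HS, labelled 30 °C). For HS the growth protocol and the methods of the study give 32 °C for 5 days instead. Per the methods, some HS pigs were slaughtered before the full 5 days, and the labels do not tell them apart. Each group had 6 arrays except F1 HS, which had 5, and each array carried the RNA of 1 animal. Per the methods of the study, TN pigs were slaughtered before the temperature was raised and HS pigs after it, so slaughter day and age cannot be told apart from temperature, and the animals came from blocks of littermates whose parents are not in the labels, so the p-values treat related animals as independent.

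Mitochondrial DNA is a small circular genome present in many copies per cell and passed on by the mother. Its genes are transcribed together as long precursors that are then cut into shorter messages. In a tissue as rich in mitochondria as muscle these messages are among the most abundant of all. COX1, COX2 and COX3 form the catalytic core of the enzyme that passes electrons to oxygen, CYTB is the core of the complex that feeds that enzyme through cytochrome c, and ATP6 and ATP8 sit in the membrane part of the machine that makes ATP from the proton gradient.

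The array carries the same transcripts many times over. The 76 named probes, each 60 bases long, fell on 31 stretches of sequence, with up to 10 probes on 1 stretch, and 62 of them overlapped another probe. They are repeated readings of 6 genes and not independent measurements. Among the 50 pairs of same-strand probes that shared at least 30 identical bases with at most 4 differing, some differed at single positions inside the shared stretch. The 3 pairs on which the results turn most are printed from the scanner files, 5′ to 3′, with capitals at the bases where the probes of a pair differ.
COX2 A_72_P746371: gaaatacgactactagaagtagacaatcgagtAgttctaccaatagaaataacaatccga
COX2 A_72_P751248: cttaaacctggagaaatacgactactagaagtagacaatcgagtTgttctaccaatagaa
COX1 A_72_P762153: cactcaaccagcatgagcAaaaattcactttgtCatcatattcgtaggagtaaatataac
COX1 A_72_P721538: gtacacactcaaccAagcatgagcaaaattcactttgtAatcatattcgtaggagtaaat
CYTB A_72_P355338: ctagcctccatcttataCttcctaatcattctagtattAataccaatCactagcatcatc
CYTB A_72_P749269: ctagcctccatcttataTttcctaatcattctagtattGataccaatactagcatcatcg
Counted from the 5′ end of the first probe of each pair, the COX2 probes shared 47 identical bases and differed by A33T. The COX1 probes shared 53 and differed by C34A and by 2 gap bases. The CYTB probes shared 57 and differed by C18T, A39G and 1 gap base. Which of these bases the animals carry was not measured. The ATP8 probe and the COX2 probe O5218 are also shown, because they had the largest called differences between HS and TN.
ATP8 A_72_P442187: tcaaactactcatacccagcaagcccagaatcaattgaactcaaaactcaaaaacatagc
COX2 O5218: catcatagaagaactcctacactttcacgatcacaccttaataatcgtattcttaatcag

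All values are quantile-normalised median spot intensities on the log2 scale, where a difference of 1 is a doubling, and a probe was called where limma's p-value, adjusted by Benjamini-Hochberg over all 41517 probes kept after the filter on dim probes, was under 0.05. All 76 named probes were kept. Their spots were very bright: the median named probe had a higher mean than 99.5% of all kept probes, which describes the spots and not the amount of message, and no spot was saturated. Of the 83 probes with the gene only in their description, 57 were kept, with mean levels of 5.53 to 17.15 and a median of 7.13. One of these 83 shared a stretch of at least 20 bases with a named probe, so the text below rests on the named probes. Of these 57, 5 were called for temperature, 1 between the parental breeds and none for F1 against the midpoint or either parent. Of all kept probes, 16.0% were called for temperature, 3.64% between the parental breeds and 0.246% for F1 against the midpoint. A COX1 probe among the named, O13550, is the reverse complement of A_72_P730653 over 46 bases and read 8.11 on average. Between 58.4% and 75.9% of the spots of an array were well above background. The mean of 10 skeletal muscle markers was between 17.71 and 18.3 on every array, so the labelled tissue was present in every sample. These arrays hold bulk tissue, so fewer cells of a type and less RNA per cell cannot be told apart.

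The largest differences among these genes lay between the F1 pigs and their parental breeds. At 17 of the 76 probes the F1 level was above the midpoint of Creole and Large White, against 0.246% of all probes called in either direction (102 of 41517), and at none was it below. The 17 probes covered 11 stretches of sequence and all 6 genes but ATP8: 6 CYTB, 3 COX1, 3 COX2, 3 ATP6 and 2 COX3. All 11 F1 arrays stood above the parental midpoint at each of the 17 probes, which were picked by this same contrast, so this adds no support. Over the 76 probes the median departure was 0.13, and 70 were positive, whereas the median over all kept probes was -0.003. When each array was scaled by a single factor instead (its median, its 75th percentile or its spike-in controls), 67 to 75 of the 76 departures remained positive but only 1 to 3 probes were called (1.32% to 3.95% of the 76, beside 0.0674% to 0.198% of all kept probes), COX1 A_72_P762153 each time. At the 17 probes the departures stayed positive over all 11 other ways of processing. They ran from 0.62 to 0.71 at CYTB A_72_P355338 and from 0.68 to 0.79 at COX3 A_72_P750221. Smaller departures moved more for their size, from 0.12 to 0.25 at ATP6 A_72_P718938 and from 0.18 to 0.27 at CYTB A_72_P729443. Over the 76 probes the median was 0.12 with median scaling, 0.15 and 0.16 with the 75th percentile scalings and 0.07 with spike-in scaling. Among TN arrays alone and among HS arrays alone none was called.

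COX2, which holds the copper centre that receives electrons from cytochrome c, had the largest departure, at probe A_72_P746371. In F1 TN the level ran from 16.74 over a median of 16.91 to 17.1, and the 5 F1 HS arrays read 16.76, 16.73, 16.65, 16.8 and 16.9. In Creole TN it ran from 12.72 over 14.44 to 16.84 and in Creole HS from 10.10 over 14.96 to 16.45. The F1 arrays lay within a narrow band at the top, and the Creole arrays were spread over a range far wider than it. Large White TN ran from 14.39 over 15.79 to 16.74 and HS from 14.34 over 15.4 to 16.61, between the other breeds. The F1 mean was 16.84 ± 0.14 (SD, n = 11), the Creole mean 14.19 ± 1.89 (SD, n = 12) and the Large White mean 15.65 ± 0.88 (SD, n = 12). The within-group SD was 0.12 in F1 and 1.5 in the parental groups, whereas the fit uses a single spread for all groups of a probe. On that footing, F1 exceeded the midpoint by 1.91 (SE 0.43), or 3.76-fold, with a limma adjusted p of 0.0435. This call held in 5 of 11 other ways of processing, with adjusted p between 0.0034 and 0.0725 and a departure between 1.63 and 2.08.

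COX1, the subunit that carries the oxygen-reducing site, behaved in the same manner at A_72_P762153. The level in F1 TN ran from 17.33 over 17.51 to 17.58, and the 5 F1 HS arrays read 17.27, 17.37, 17.15, 17.42 and 17.41. It ran from 14.07 over 15.23 to 17.39 in Creole TN and from 14.01 over 15.6 to 17.05 in Creole HS. In Large White, TN ran from 14.06 over 16.08 to 17.45 and HS from 13.96 over 15.53 to 17.27. Only 4 of the 24 parental arrays reached the F1 range, and others lay more than 3 log2 units under it. The F1 mean was 17.4 ± 0.13 (SD, n = 11), against 15.37 ± 1.23 for Creole and 15.69 ± 1.29 for Large White (SD, n = 12 each). Here too the within-group SD was unequal, at 0.11 in F1 and 1.3 in the parental groups. The departure from the midpoint was 1.87 (SE 0.37), or 3.66-fold, with a limma adjusted p of 0.0153, and it was called under all 11 other ways of processing. The other called COX1 probes, A_72_P752754 and A_72_P747791, departed by 0.83 (SE 0.17) and 0.43 (SE 0.1), while the brightest COX1 probe, A_72_P724398, departed by 0.08 and was not called.

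For COX3, a structural subunit of the same core, A_72_P750221 departed by 0.75 (SE 0.14, limma adjusted p = 0.00981). The F1 mean was 17.11 ± 0.1 (SD, n = 11), against 16.31 ± 0.44 for Creole and 16.4 ± 0.52 for Large White (SD, n = 12 each). The F1 arrays lay between 16.9 and 17.21, and the medians of the parental groups lay between 15.95 and 16.4. The call held in 9 of 11 other ways of processing.

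CYTB had 6 called probes of 21, with departures between 0.22 and 0.68. At A_72_P355338 the F1 arrays read between 18.0 and 18.13 and the parental arrays between 16.77 and 18.17, with 4 of 24 parental arrays at or above the lowest F1 array. The departure there was 0.68 (SE 0.13, limma adjusted p = 0.0146). The brightest CYTB probe, A_72_P729443, was among the called, at 0.22 (SE 0.044). The F1 mean there was 18.77 ± 0.041 (SD, n = 11), against 18.52 ± 0.1 for Creole and 18.58 ± 0.14 for Large White (SD, n = 12 each).

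For ATP6, the subunit through which protons cross the membrane, 3 of 10 probes were called (A_72_P722198, A_72_P722713 and A_72_P718938), with departures of 0.16 to 0.18 at levels above 18. At A_72_P722713 the F1 mean was 18.57 ± 0.053 (SD, n = 11), the Creole mean 18.38 ± 0.055 (SD, n = 12) and the Large White mean 18.44 ± 0.092 (SD, n = 12). The only ATP8 probe departed by 0.28 (SE 0.094) with a limma adjusted p of 0.35. These were small steps beside those of the COX1 and COX2 probes.

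At the brightest probe of each gene F1 departed from the midpoint by 0.28 or less, and of these 6 probes only that of CYTB was called. The departure of 0.28 was at ATP8 A_72_P442187, where F1 was above Creole by 0.33 and above Large White by 0.23. COX3 A_72_P722568 read 19.14 ± 0.023 in F1 (SD, n = 11), and 18.99 ± 0.081 in Creole and 19.03 ± 0.085 in Large White (SD, n = 12 each), a departure of 0.13 (SE 0.034) with a limma adjusted p of 0.119. ATP6 A_72_P753825 read 18.81 ± 0.019 in F1, 18.7 ± 0.055 in Creole and 18.74 ± 0.06 in Large White, and departed by 0.09 (SE 0.029). All 11 F1 arrays stood above the midpoint at both probes. COX1 A_72_P724398 read 18.91 ± 0.071 in Creole and 18.92 ± 0.19 in Large White, and F1 departed from their midpoint by 0.08 (SE 0.049). COX2 A_72_P442181 read 18.65 ± 0.046 in F1, 18.61 ± 0.047 in Creole and 18.63 ± 0.068 in Large White, and departed by 0.03 (SE 0.03), with 7 of 11 F1 arrays above the midpoint. The same message was thus read at 0.03 by this COX2 probe and at 1.91 by A_72_P746371.

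**Figure D1:**
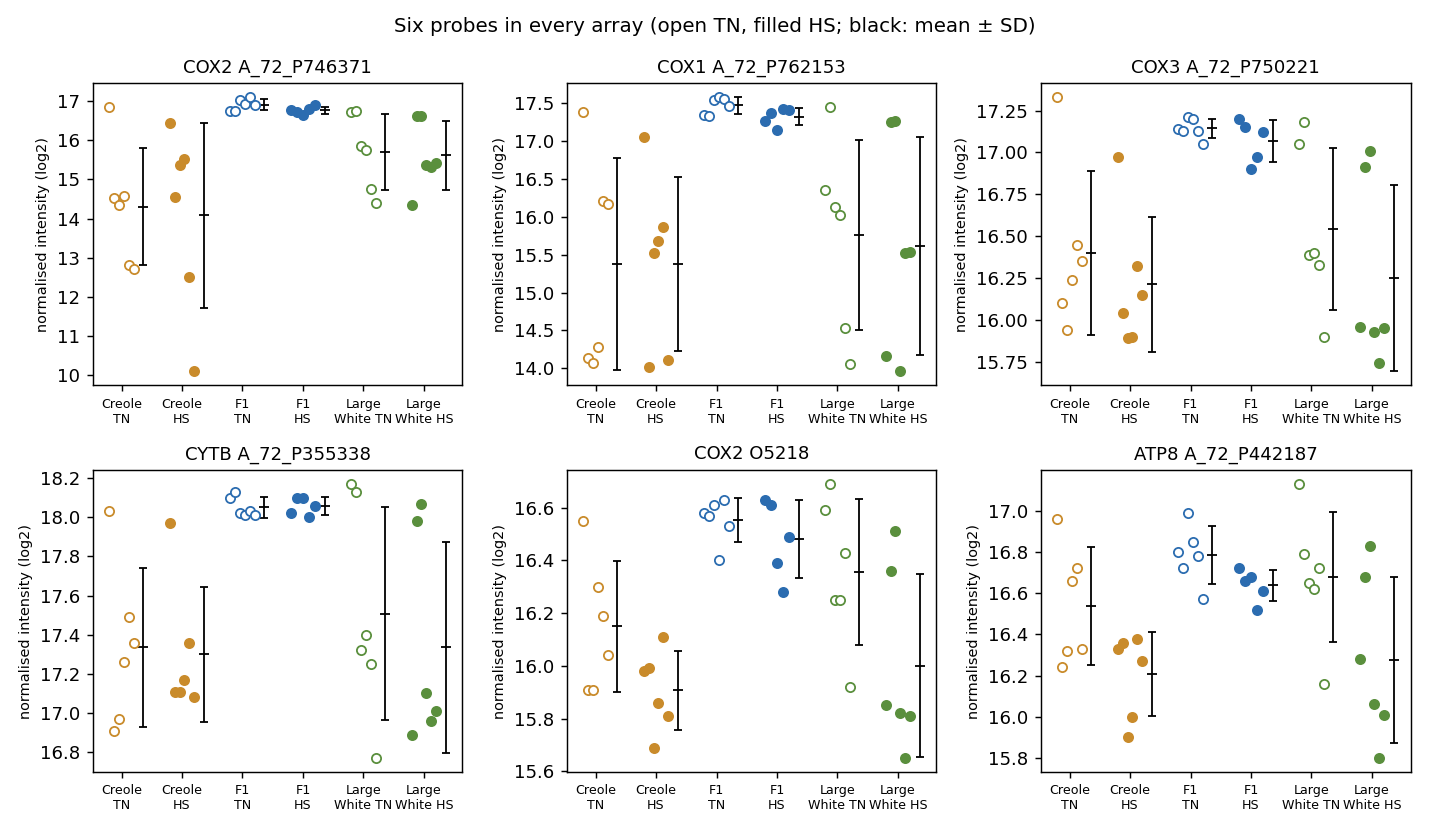
Normalised intensity (log2) of 6 probes in each of the 35 arrays by group, with open points for thermoneutral and filled points for heat-stressed pigs, and the group mean ± SD in black. For A_72_P762153 of COX1 the F1 arrays sit between 17.15 and 17.58 while parental arrays run from 13.96 to 17.45.

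**Figure D2:**
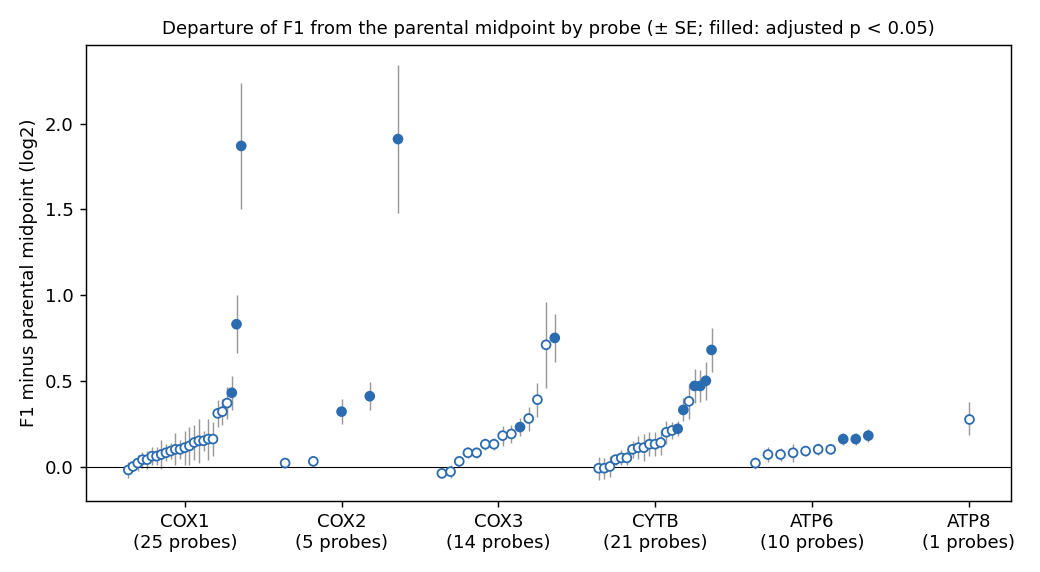
Departure of F1 from the parental midpoint (log2, ± SE) for each of the 76 probes by gene, in order of size, with filled points where the limma adjusted p was under 0.05. Probes of the same message range from -0.02 to 1.87 for COX1 and from 0.02 to 1.91 for COX2.

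The spots of the called probes had means of 15.53 to 18.62 and those of the 59 others 8.11 to 19.05, so the sets overlapped in brightness. In each gene with more than 1 probe, called and uncalled probes stood side by side: COX2 departures ran from 0.02 to 1.91 and COX3 departures from -0.04 to 0.75. Of the 50 overlapping same-strand pairs, both probes were called in 6, 1 probe in 14 and neither in 30.

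Since the probes of an overlapping pair are read on the same array, their difference is the same under any scaling of an array by a single factor, though not under quantile normalisation. It was taken from the unnormalised intensities and is given as a description. For the COX1 pair printed above (A_72_P762153 minus A_72_P721538), the difference was between -1.25 and -0.85 on the 11 F1 arrays, between -4.27 and -0.98 on the Creole arrays and between -3.9 and -1.06 on the Large White arrays. The F1 values lay at the upper end and overlapped only with the highest parental arrays. The departures of these COX1 probes from the midpoint were 1.87 and 0.15. For the COX2 pair (A_72_P746371 minus A_72_P751248), the medians were -1.12 in F1 TN and -1.21 in F1 HS, -3.21 and -2.64 in the Creole groups and -1.98 and -2.05 in the Large White groups. The lowest single value was -6.75, on a Creole HS array. The departures of both COX2 probes were called, at 1.91 and 0.32.

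The CYTB pair (A_72_P355338 minus A_72_P749269) differed by 0.24 to 0.45 on every F1 array. On the Creole arrays the difference ran from -0.66 to 0.35 and on the Large White arrays from -0.69 to 0.43, with medians between -0.45 and -0.4 in the 4 parental groups. The sign of the difference was thus positive throughout F1 and negative on most parental arrays. The departures of these probes were 0.68, called, and 0.05, not called. One more reading of this stretch, A_72_P726128, departed by 0.47, called, and is printed with capitals where it differs from A_72_P355338.
CYTB A_72_P726128: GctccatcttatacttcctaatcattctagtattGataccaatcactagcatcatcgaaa
Against A_72_P355338 it shares 54 identical bases and differs by G1C and G35A, counted from its own 5′ end.

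**Figure D3:**
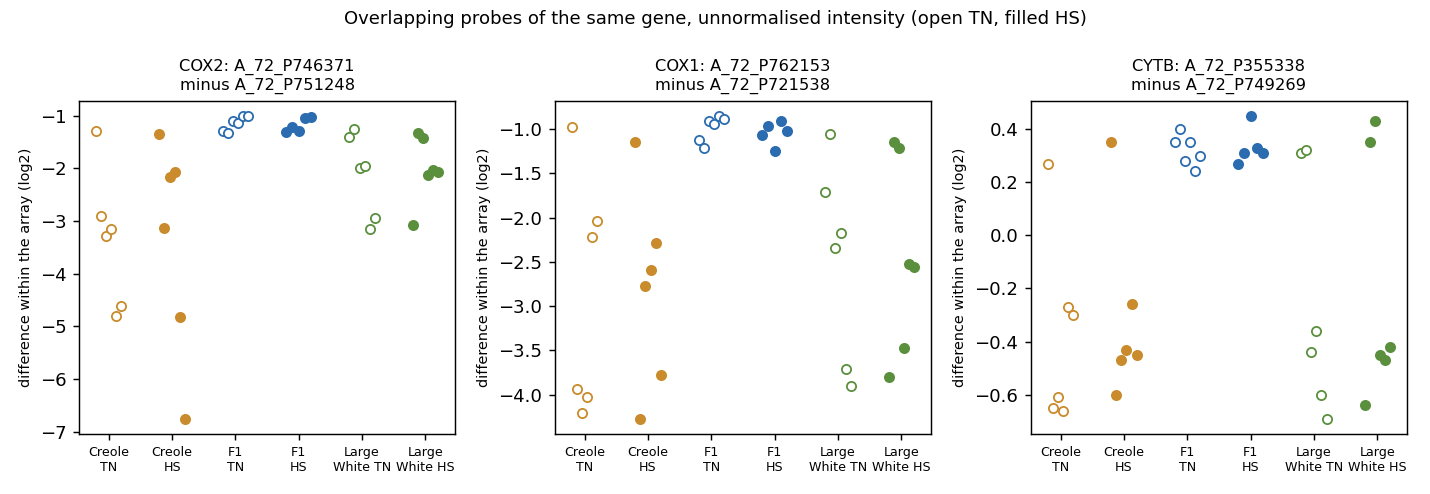
Difference within each array between overlapping probes of the same message (log2 of unnormalised median intensity), by group, with open points for thermoneutral and filled points for heat-stressed pigs. For the CYTB pair every F1 array lies between 0.24 and 0.45 while the median of each parental group lies between -0.45 and -0.4.

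The parental breeds were not uniform at the 17 called probes. Taking the lowest F1 array of the same temperature as a mark, Large White TN 2 and Large White HS 3 reached it at 16 of 17 probes, Creole TN 1 at 12, Large White HS 2 and Large White TN 1 at 11, and Creole HS 1 at 6. Large White HS 5, Large White TN 5 and Creole HS 5 reached it at 1 probe each, and the other 15 parental arrays at none. Both parental breeds thus held arrays at the F1 level and arrays far from it. The 17 probes were picked because F1 stood higher, so parental arrays under the mark follow in part from that choice. In the sample titles, Large White TN 1, TN 2, HS 2 and HS 3 carry consecutive numbers, and so do Creole TN 1 and Creole HS 1. The animals came from blocks of littermates, and whether these arrays share litters is not in the labels. The pattern is thus described for animals that may be related, and no test was made on it.

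**Figure D4:**
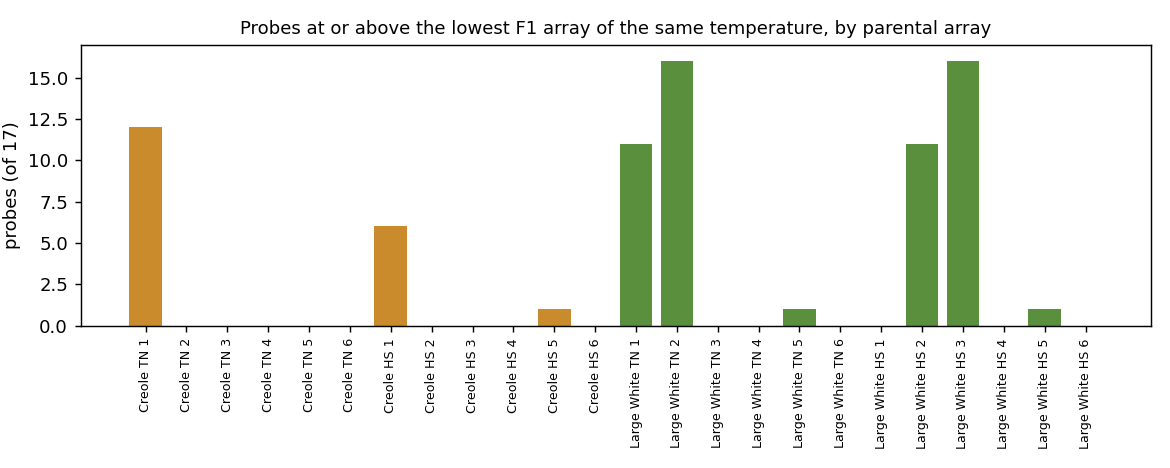
Number of the 17 probes called in F1 at which each of the 24 parental arrays was at or above the lowest F1 array of the same temperature. Large White TN 2 and Large White HS 3 reach 16, and 15 arrays stand at 0.

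The narrow band of the F1 arrays was a feature of nearly the whole set. The within-group SD was smaller in F1 than in the parental groups for 74 of the 76 probes (97.4%), against 67% of all kept probes. The 76 are repeated readings of the same messages, and 25 are of COX1. Large White TN 1 and Large White HS 4 were low at many COX1 probes. At A_72_P724343 they read 16.27 and 16.25, and the other Large White arrays 17.05 or more. The part of these arrays in the parental spread was not tested. The median within-group SD of the 76 probes was 0.0578 in F1 TN and 0.068 in F1 HS, and between 0.128 and 0.199 in the 4 parental groups. Over all kept probes these medians lay between 0.189 and 0.231. The smaller spread in F1 was thus also present over all probes, to a lesser degree. The standard errors and p-values of the fits take the spread of a probe as equal in all groups.

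Against each parent alone, F1 was higher than Creole at 14 of 76 probes (0.477% of all probes called) and higher than Large White at 7 (0.525% of all probes called), and lower than either parent at none. These comparisons share the F1 arrays with each other and with the midpoint. The largest difference from Creole was 2.64 (SE 0.49, limma adjusted p = 0.00545) at COX2 A_72_P746371, followed by 2.03 (SE 0.42, limma adjusted p = 0.0127) at COX1 A_72_P762153. Both were called under all 11 other ways of processing, while the count fell to between 2 and 4 when arrays were scaled by a single factor. The 14 probes were 5 of CYTB, 3 of ATP6, 3 of COX2, 2 of COX3 and 1 of COX1.

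The largest difference from Large White was 1.71 (SE 0.42, limma adjusted p = 0.0492) at COX1 A_72_P762153, followed by 0.87 (SE 0.2, limma adjusted p = 0.0322) at COX1 A_72_P752754 and 0.71 (SE 0.16, limma adjusted p = 0.0318) at COX3 A_72_P750221. The other called probes were 4 of CYTB, at 0.45 to 0.63. No COX2, ATP6 or ATP8 probe was called against Large White. With arrays scaled by a single factor 0 or 1 of the 76 probes was called. Arrays lay on 5 slides, each scanned as a unit, and breeds could be compared within 4 of the 5 slides. The departure from the midpoint of each of the 17 probes and the difference from Creole of each of the 14 were positive on 4 of 4 slides. On slide 2, however, the 7 differences from Large White lay between -0.17 and 0.05, and 5 were negative. Its Large White arrays were TN 2, HS 2 and HS 3, which reached the F1 mark at 16, 11 and 16 of the 17 probes. At COX1 A_72_P762153 on that slide, F1 minus Creole was 3.15 and F1 minus Large White -0.11, with a departure of 1.52 from the midpoint. The probes were picked by these same contrasts with F1 over the same arrays, so the shared signs are a description.

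Between the parental breeds, none of the 76 probes was called, against 3.64% of all probes, while 6 had an unadjusted p under 0.05. The smallest adjusted p from limma was 0.0877, at COX2 A_72_P746371, where Creole was lower than Large White by 1.46 (SE 0.48). At the brightest probe of each gene the breeds differed by at most 0.11 in size, at ATP8 A_72_P442187.

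Heat stress was set against thermoneutrality over all breeds. The differences were small: 6 of the 76 probes were lower in HS (ATP8, 1 COX2 and 4 CYTB probes) and none higher, or 7.89%, against 16.0% of all probes called in either direction. Which of these shares was larger turned with the scaling of the arrays, as given with the plot of the 4 scalings. The 4 CYTB probes lay on 2 stretches of sequence. The median difference was -0.06, with 67 of 76 probes negative, while the median over all kept probes was -0.022. At an unadjusted p under 0.05 there were 15.

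ATP8, a short subunit that overlaps ATP6 on the mitochondrial genome, had the largest called difference. Its level ran from 16.24 over a median of 16.49 to 16.96 in Creole TN and from 15.9 over 16.3 to 16.38 in Creole HS. In F1 TN it ran from 16.57 over 16.79 to 16.99, and the 5 F1 HS arrays read 16.72, 16.66, 16.68, 16.52 and 16.61. Large White TN ran from 16.16 over 16.69 to 17.13 and HS from 15.8 over 16.17 to 16.83. The ranges of TN and HS overlapped in each breed, and 15 of 17 HS arrays lay under the TN mean of their breed. The mean fell from 16.67 ± 0.26 (SD, n = 18) to 16.36 ± 0.32 (SD, n = 17), a fitted difference of -0.30 (SE 0.087), or 1.23-fold, with a limma adjusted p of 0.019. On the 4 slides that carried both temperatures the difference was between -0.63 and -0.07.

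COX2 O5218 had a difference of -0.23 (SE 0.077, limma adjusted p = 0.0394), with 13 of 17 HS arrays under the TN mean of their breed. For CYTB, A_72_P725783 changed by -0.20 (SE 0.063, limma adjusted p = 0.0316) and A_72_P726943, A_72_P721121 and A_72_P723790 by -0.18, -0.17 and -0.16. At A_72_P725783 the TN mean was 16.85 ± 0.23 (SD, n = 18), and the HS mean 16.66 ± 0.12 (SD, n = 17). All 21 CYTB probes had a negative difference. The 6 called differences, picked by this same contrast, were negative on 4 of 4 slides.

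The brightest probes of the other genes did not pass the test. Their differences were -0.03 for COX1, 0.02 for COX2, 0.00 for COX3, 0.00 for CYTB and -0.01 for ATP6, with standard errors between 0.027 and 0.046. The 10 ATP6 probes lay between -0.04 and 0.02. No ATP6 probe was called in this comparison, and no COX1 or COX3 probe either.

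**Figure D5:**
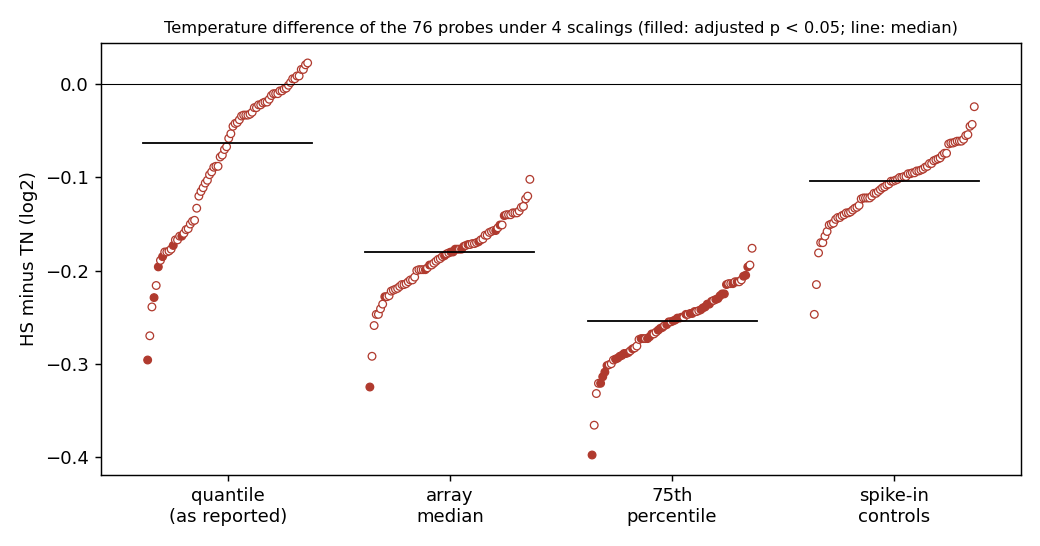
Difference of heat stress minus thermoneutral (log2) of the 76 probes under quantile normalisation and 3 simpler scalings of each array, with filled points where the limma adjusted p was under 0.05 and a line at the median. The median moves from -0.06 under quantile normalisation to -0.25 under 75th percentile scaling.

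The number of temperature calls depended on how arrays were scaled, while the 6 called differences stayed negative under all 11 other ways of processing. Quantile normalisation forces the brightest spots of all arrays onto the same values, and these probes are among the brightest. When each array was instead scaled by its median, its 75th percentile or its spike-in controls, all 76 differences were negative, with medians of -0.18, -0.25 and -0.10, and 16, 49 and 0 probes were called. These were 21.1%, 64.5% and 0% of the 76, beside 16.0%, 22.4% and 11.3% of all kept probes under the same scalings. With the processed signal scaled by its 75th percentile, 37 were called (48.7%), beside 17.5% of all. The median over all kept probes was -0.003, -0.077 and 0.074 under the same scalings. With the brightness of the array, or with the mean of 9 leukocyte markers, as a covariate, none of the 76 was called. Over all kept probes the calls fell from 6654 to 2092 and 1908, so most temperature calls were lost in these fits. The leukocyte mean ran from 7.77 to 10.47 in TN and from 9.17 to 10.74 in HS, and 4 of the 9 markers were higher in HS (LYZ by 2.26, TYROBP by 0.98, CSF1R by 0.93 and CD74 by 0.39). Of the blood cell markers 2 of 3 were lower in HS, and of 10 muscle markers 2 were lower and none higher. Of 6 connective tissue markers 2 were higher (LUM by 0.39, COL3A1 by 0.33), of 5 endothelial markers 1 was lower (VWF, -0.36), and of 6 adipocyte and 4 nerve markers none was called. Since some leukocyte markers were themselves higher in HS, their covariate cannot be told apart from temperature. The part of all these markers in the result was not tested.

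Within each breed no probe was called for temperature. The share of all probes called was 1.91% in Creole, 0.00482% in F1 and 0.00482% in Large White. Probes with an unadjusted p under 0.05 numbered 9 in Creole, 0 in F1 and 6 in Large White. The ATP8 difference was -0.33 in Creole, -0.15 in F1 and -0.40 in Large White. The interaction of breed and temperature was called for none of the 76 probes and for 0% of all probes, and its smallest adjusted p from limma among the 76 was 0.963, with 0 at an unadjusted p under 0.05. A difference between the breeds in their response to heat was not shown by this test, and its absence is not shown either.

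Other genes of the same pathway were set beside these. All 7 mitochondrially encoded subunits of complex I, the entry point of electrons from NADH, were measured. In HS 2 were lower (ND4L by -0.31, ND4 by -0.15), or 28.6%, beside 16.0% of all probes called. Above the parental midpoint in F1 was 1 (ND2, by 0.43, limma adjusted p = 0.0255), beside 0.246% of all probes called. The median departure of the 7 was 0.27. Of the nuclear-encoded subunits, none was called against the midpoint: 0 of 9 in complex III, 0 of 13 in complex IV and 0 of 17 in ATP synthase, with medians between -0.03 and -0.01.

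In heat stress many nuclear-encoded subunits of the same complexes were lower. In complex III 6 of 9 were lower, among them CYC1 (-0.36) and UQCRC1 (-0.36), which carry the cytochrome c1 haem and a core scaffold. In complex IV 7 of 13 were lower and 1 higher, among them NDUFA4 (-0.35) and COX7B (-0.32). In ATP synthase 12 of 17 were lower and none higher, among them ATP5MC1 (-0.35), a subunit of the membrane rotor, and ATP5F1A (-0.33), the alpha subunit. The median differences were -0.22, -0.23 and -0.20. The shares called in either direction were 66.7%, 61.5% and 70.6%, each gene read by its brightest probe, beside 16.0% of all probes. The difference between nuclear and mitochondrial subunits was not itself tested.

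Of the genes that copy, transcribe and process mitochondrial DNA and RNA, 21 of 37 were measured and 4 were lower in HS, or 19%, close to the 16.0% of all probes called. They were TFAM (-0.21), which packages mitochondrial DNA, POLG (-0.16), its polymerase, TACO1 (-0.26), a factor for the translation of COX1, and TBRG4 (-0.33). ELAC2, which trims transfer RNA ends out of the long mitochondrial transcripts, was above the parental midpoint in F1 by 0.63 (SE 0.12, limma adjusted p = 0.0129). Among 11 of 27 assembly factors measured, COX10 (-0.24), which makes the haem of complex IV, and BCS1L (-0.18), which inserts the iron-sulphur protein into complex III, were lower in HS, or 18.2%, again close to the share of all probes.

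Across the 35 arrays, the probes of other genes whose level ran most like the mean of the brightest probes of the 6 genes (each standardised) were mostly those of the remaining mitochondrial messages. The highest Pearson r was 0.91 for ND2, then 0.90 for ND1, 0.87 for ND6 (probe O2495) and 0.83 each for ND5 and PLEKHD1, over 19523 probes. With the means of the 6 groups removed, the highest were ND1 (0.86), ND2 (0.84), ND6 (0.84) and ND5 (0.80). The lowest with these means removed were ANK3 (-0.66), SLA-DQA1 (-0.66) and ND6 at another probe, A_72_P442203 (-0.64). The lowest over the arrays as they stood were A_72_P442203 (-0.70), AKR1C1 (-0.70) and TOMM5 (-0.65). The probes share the arrays and their scaling, so these values are a description. The 2 ND6 probes ran in opposite directions over the same arrays.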

How the data were processed

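Total RNA of longissimus dorsi muscle was labelled with Cy3 by the authors, hybridised to 1-colour porcine Agilent arrays and read with Agilent Feature Extraction, version 10.10.1.1 per the submitters' processing notes. The deposited scanner files hold linear intensity values, and the deposited table holds log2 values of 40649 probes, which the authors quantile-normalised and filtered. Here the median intensity was quantile-normalised without background subtraction and logged, the 105 outlier-flagged spots were set to missing, and 41517 probes were kept, each well above background in 1 group or more on 75% of its arrays or more. Each comparison was fitted with limma 3.58.1 in R 4.3.3 over all kept probes, with breed and temperature as additive terms or, within breeds and for the interaction, with group means, with Benjamini-Hochberg adjustment at 0.05. The random terms of the study (pen, slaughter day, father, mother) are not in the labels. Probes were named by accession or by gene name for 39.2% of the array. The rule was to name, for each gene, the brightest probe and the probes that differed from it in sign or call. Where many did, they are given by counts and ranges, so not every one is named. Other scalings, background correction, no filter, the slide, array weights, array brightness and leukocyte markers as terms, the authors' table and each array left out were tried as alternatives. The members and lists were chosen with earlier results of these data known. The fit was tested on simulated data. The number of arrays limits the precision.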

Additional observations from a re-analysis of the deposited data

Results flagged for a closer look

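The 28 probes called in a comparison or brightest of their gene gave 168 groups. Of these, 19 had an array whose gap to its nearest neighbour was a large share of the range of the group, above Dixon's critical value. Chance gives about 1 in 20 such groups if they are independent. These groups share arrays and overlapping probes, so the count is a description. Each share is given here with the array it belongs to. In Creole TN, replicate 1 stood above the other arrays at COX1 A_72_P752754 (0.801 of the range), CYTB A_72_P733846 (0.701), COX3 A_72_P756042 (0.69), COX1 A_72_P747791 (0.676), CYTB A_72_P726128 (0.674) and COX3 A_72_P750221 (0.632). In Creole HS, replicate 1 stood above the others at COX3 A_72_P722568 (0.74), COX1 A_72_P747791 (0.706), CYTB A_72_P355338 (0.688), CYTB A_72_P729443 (0.679) and COX1 A_72_P724398 (0.632). At A_72_P752754 the Creole TN array read 17.39 and the others at most 16.3.

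In Large White TN, replicate 1 stood below the others at COX1 A_72_P724398 (0.791), replicate 2 above them at COX1 A_72_P752754 (0.678), and replicate 6 below them at ATP6 A_72_P722713 (0.813) and COX3 A_72_P759028 (0.714). In Large White HS, replicate 4 stood below the others at COX1 A_72_P724398 (0.673) and replicate 5 at CYTB A_72_P725783 (0.672). Creole TN replicate 5 stood above the others at ATP6 A_72_P722713 (0.743), and F1 HS replicate 3 at COX3 A_72_P722568 (0.845).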

How the results depend on the processing

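No paired analysis was possible because the replicate numbers follow the order of deposition and pair no samples. Of the 76 probes, the number lower in HS was 6, and it became 49 and 37 with 75th percentile scaling of the median intensity and of the processed signal, 16 with median scaling, 15 with array weights, 3 without the filter and 0 with spike-in scaling, the brightness covariate or the leukocyte covariate. The number above the midpoint in F1 was 17, and it became 1, 1, 2 and 3 with 75th percentile scaling of the median intensity, of the processed signal, median scaling and spike-in scaling, 11 without the filter, and 0 in TN arrays alone and 0 in HS arrays alone. The number above Large White was 7, and it became 0 with either 75th percentile scaling, spike-in scaling, TN arrays alone or HS arrays alone, 1 with median scaling, 2 with the slide as a block, 3 without the filter, and 11 with array weights or the leukocyte covariate. The number above Creole was 14, and it became 2 with either 75th percentile scaling, 4 with median and 4 with spike-in scaling, 24 with array weights, 22 with the leukocyte covariate, and 0 in TN or HS arrays alone. The number that differed between Creole and Large White was 0, and it became 3 with the slide as a block, 2 with array weights and 1 with the brightness or leukocyte covariate. Normexp correction and the authors' table left every count within 1.5 times. Fewer arrays enter the fits of TN or HS alone. The causes of the other changes were not tested. Within breeds and for the interaction, the counts stayed at 0 under the alternatives run, except 1 within Large White without Large White TN replicate 6.

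With each array left out in turn, the counts ran from 1 to 12 in HS, from 8 to 21 against the midpoint, from 0 to 9 against Large White, from 13 to 23 against Creole, and from 0 to 1 between the parental breeds and within Large White. The HS count was 12 without Large White TN replicate 1 or 6, and 1 without Creole TN replicate 5, Large White TN replicate 3 or 5 or Large White HS replicate 5. It was 2 without Creole TN replicate 1 or 4, Creole HS replicate 1 or 3, F1 HS replicate 4 or Large White TN replicate 2 or 4, and 3 without F1 TN replicate 3, Creole HS replicate 4 or 6 or Large White HS replicate 1, 4 or 6. The midpoint count was 8 without F1 HS replicate 1, 9 without F1 HS replicate 2, 3, 4 or 5 or F1 TN replicate 1 or 3, and 10 without F1 TN replicate 2, 4 or 5. It was 11 without Creole TN replicate 2, 3, 4 or 6, Creole HS replicate 2, Large White TN replicate 3, 4 or 5 or Large White HS replicate 1 or 6. The count against Large White was 0 without F1 HS replicate 1 or 2, Large White TN replicate 4 or 6 or Large White HS replicate 4 or 6, 1 without F1 TN replicate 1 or 3, F1 HS replicate 5, Large White TN replicate 5 or Large White HS replicate 1, and 2 without F1 TN replicate 5 or Large White HS replicate 5. It was 3 without F1 HS replicate 3 or 4 or Large White TN replicate 3, and 4 without Creole TN replicate 4, 5 or 6, Creole HS replicate 5 or F1 TN replicate 4 or 6. The count against Creole was 23 without Creole TN replicate 1. Between the parental breeds 1 probe was called without Creole TN replicate 1 or Creole HS replicate 1.

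Probes with a difference near 0 in the temperature comparison turned to a called negative one with simpler scalings. With 75th percentile scaling of the median intensity the differences became -0.1964 for COX2 A_72_P442181, -0.2141 for COX3 A_72_P719538, -0.2046 for COX1 A_72_P736144, -0.2117 for ATP6 A_72_P736534, -0.2063 for COX3 A_72_P759849 and -0.225 for ATP6 O2494. With the processed signal they became -0.2089 for COX1 A_72_P736144, -0.234 for ATP6 A_72_P736534, -0.2221 for COX3 A_72_P759849 and -0.2373 for ATP6 O2494. With median scaling ATP6 O2494 became -0.1512. The direction of a difference that was called in neither setting was not read.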
